A study of Rattus norvegicus with 6 samples.

Results

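The loci described here are those of the rat mitochondrial chromosome, which were taken as all rows of the deposited expression table whose position lies on chromosome M. They number 37 of 26406 listed genes. By their length and name they fall into 13 protein genes, 2 unnamed loci of 958 and 1571 bases and 22 short loci of 60 to 75 bases. For the 24 loci without a protein name the table gives an Ensembl identifier only. The pair of longer unnamed loci was read as the ribosomal RNA class, because vertebrate mitochondrial DNA carries ribosomal RNA genes and no other genes of that length without a protein name. Each short locus is called by its identifier.

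Gastrocnemius muscle, a mixed muscle of the calf, was taken from 6 male Sprague Dawley rats of the strain Crl:SD, 1 library per rat. The olanzapine group was rats 4, 10 and 12, which weighed 398, 366 and 400 g. These rats received olanzapine, an atypical antipsychotic, through a venous catheter for 24 h, with a loading dose of 1 mg per 100 g body weight in the first 0.5 h and a maintenance rate of 0.04 mg per 100 g per h over the remaining 23.5 h. The vehicle group was rats 3, 9 and 11, which weighed 382, 382 and 356 g and received vehicle at the same pump rate. The comparison of these groups asks which muscle RNAs differ after the infusion. Values are FPKM, which count the fragments of a gene relative to its exon length and to the mapped fragments of the library, so that levels are per length, and in whole muscle fewer fibers rich in mitochondria and less mitochondrial RNA per fiber cannot be told apart.

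Mitochondrial DNA of vertebrates is a small circle that encodes core subunits of the respiratory chain complexes I, III and IV and of the ATP synthase (complex V), together with the ribosomal and transfer RNAs that translate them in the mitochondrion. It is transcribed as long precursor RNAs that are cut at the transfer RNAs lying between the other genes, and most messenger RNAs then receive a poly(A) tail. The remaining subunits of these complexes come from nuclear genes. Slow oxidative muscle fibers hold more mitochondria than fast glycolytic fibers of type IIb.

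The libraries were checked before the loci were compared. Summed FPKM per rat ranged from 949847 to 1183006 in the olanzapine rats and from 945068 to 1058143 in the vehicle rats. Reads per rat are not given, and depth relative to vehicle rat 3 was estimated from ratios of FPKM values under 0.5. It was 0.745 to 0.923 in the olanzapine rats and 0.669 and 0.446 in vehicle rats 9 and 11. Skeletal muscle markers were high in every rat, with a summed FPKM over 8 genes of 132400 to 178200 in the olanzapine rats and 104100 to 133200 in the vehicle rats. Slow fiber markers moved with the treatment. All 10 had a log2 fold change below 0, and 9 were lower at an adjusted p under 0.05 from limma, against 0.457% of all genes tested. Their summed FPKM was 7295, 2830 and 4044 in olanzapine rats 4, 10 and 12, against 34210, 21000 and 18920 in vehicle rats 3, 9 and 11. The summed FPKM of 5 markers of fast IIb fibers was 13610 to 18780 in the olanzapine rats and 5157 to 10120 in the vehicle rats. Blood markers summed to 4639 to 9606 FPKM in the olanzapine rats and 1725 to 13880 FPKM in the vehicle rats, and adipocyte markers to 245.5 to 780.4 FPKM in the olanzapine rats and 263.7 to 425.3 FPKM in the vehicle rats. Heart muscle markers summed to 9.88, 1.75 and 1.44 FPKM in olanzapine rats 4, 10 and 12. Vehicle rats 3, 9 and 11 had 16.9, 15.3 and 11.8 FPKM, each above every olanzapine rat. Nppa was at 0 in all 6 rats, and Myh6 had a mean of 2.72 FPKM in the olanzapine rats and 11.2 FPKM in the vehicle rats. In the heart list 0 members passed the adjusted threshold with limma. The same held for the skeletal muscle, fast IIb fiber, blood, adipocyte, macrophage, endothelial, fibroblast and neural marker lists. Not every row passed the filter, and 2 of 5 were tested in the heart list and 3 of 5 in the neural list. The part of these fiber type differences in the mitochondrial values was not tested.

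No mitochondrial locus passed the test for a change with olanzapine infusion. Of the 34 loci that passed the filter of a mean of at least 1 FPKM, 0 had an adjusted p under 0.05 (limma on log2(FPKM + 1), Benjamini-Hochberg over all 10285 genes tested), where 52 of all genes, or 0.506%, did, 0.0486% in the higher and 0.457% in the lower direction. At an unadjusted p under 0.05 limma gave 2 of the 34 loci, both of them short, against 13.2% of all genes. A Poisson likelihood ratio test on FPKM summed per group, which has no term for the spread between rats, gave 33 of the 34 at an unadjusted p under 0.05, against 13.9% of all genes. It takes FPKM as if they were read counts, so its p falls with the level of a row as well as with its difference. The 33 loci and the 13.9% are therefore not a like comparison. The loci not tested were MT-ATP8 and the short loci ENSRNOG00000031780 and ENSRNOG00000032882, each listed at 0 in all 6 rats.

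Mitochondrial loci held a large share of the summed FPKM in every rat. All 37 together held 41.2%, 29.7% and 42.2% in olanzapine rats 4, 10 and 12, against 43.7%, 36.6% and 46.9% in vehicle rats 3, 9 and 11. The groups overlapped, at 37.7% ± 6.92 in the olanzapine rats and 42.4% ± 5.25 in the vehicle rats (SD, n = 3 each; exact permutation test, two-sided, p = 0.4). The smallest p that 3 rats against 3 allow is 0.1, so no share could pass 0.05 by itself. The adjusted p was 0.7 for each of the 4 shares tested.

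The protein genes held 19.8%, 12.0% and 15.2% of the summed FPKM in olanzapine rats 4, 10 and 12, against 19.7%, 17.4% and 19.6% in vehicle rats 3, 9 and 11. Olanzapine rat 4 lay at the level of the vehicle rats and olanzapine rats 10 and 12 lay below all of them. The means of 15.7% ± 3.89 in the olanzapine rats and 18.9% ± 1.30 in the vehicle rats (SD, n = 3 each) differed by -3.22 percentage points (exact permutation test, two-sided, p = 0.4). This difference lay between -4.73 and -2.80 percentage points with the other denominators tried and between -5.27 and -1.41 with 1 rat left out, the widest without olanzapine rat 4 and the narrowest without olanzapine rat 10. The short loci held more than the protein genes in all 6 rats, at 21.2%, 17.6% and 26.8% in olanzapine rats 4, 10 and 12, against 23.9%, 19.1% and 27.2% in vehicle rats 3, 9 and 11 (exact permutation test, two-sided, p = 0.7). Their excess over the protein genes was widest in olanzapine rat 12. The single short locus ENSRNOG00000031333 stood at 88272 FPKM in that rat and at 70590 FPKM in vehicle rat 11. In every other rat it was at no more than 4241 FPKM. The ribosomal RNA class held 0.158%, 0.0780% and 0.176% in olanzapine rats 4, 10 and 12, against 0.164%, 0.180% and 0.0973% in vehicle rats 3, 9 and 11 (exact permutation test, two-sided, p = 0.6).

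**Figure D1:**
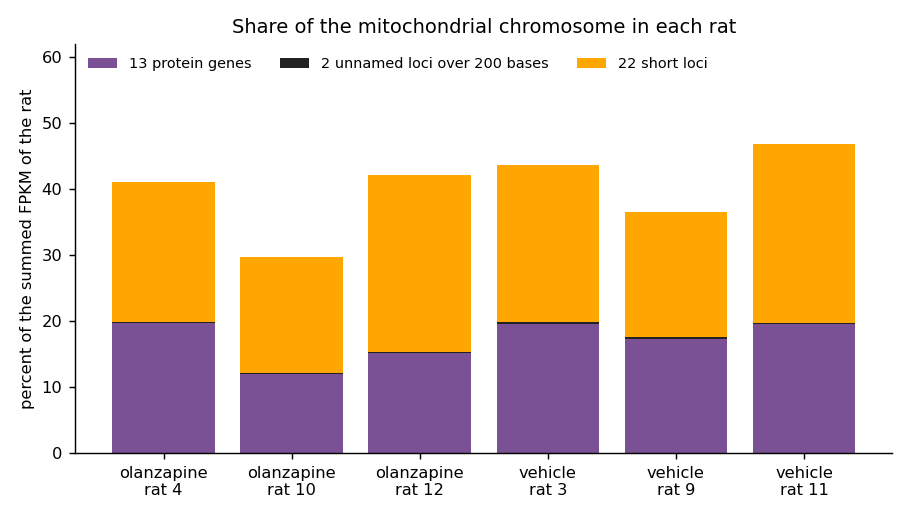
Percent of the summed FPKM of each rat held by the 13 protein genes, the 2 unnamed loci over 200 bases and the 22 short loci of the mitochondrial chromosome, stacked per rat. The whole bar is lowest in olanzapine rat 10 at 29.7% and highest in vehicle rat 11 at 46.9%, and the black band of the unnamed loci is no more than 0.180% in any rat.

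The split of the chromosome depends on the division by length. Short loci held between 51.6% and 63.6% of the chromosome's FPKM over the 6 rats. When each FPKM was multiplied by the length of its locus, which undoes the division if the listed length was the divisor, the short loci held 7.40%, 9.68% and 12.5% in olanzapine rats 4, 10 and 12, against 8.20%, 7.29% and 8.92% in vehicle rats 3, 9 and 11. On the same scale the protein genes held 86.1% to 91.7% over the 6 rats. For comparison, the 1727 nuclear loci under 200 bases held 5.15% to 7.04% of the summed FPKM in the olanzapine rats and 4.38% to 5.70% in the vehicle rats.

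The protein genes lie between ND1, at bases 2740 to 3694 of chromosome M in Rnor_5.0, and CYTB, at 14136 to 15278. Their levels spanned more than 10-fold within a rat. MT-CO3 and MT-ATP6, subunits of cytochrome c oxidase (complex IV) and of ATP synthase, had the highest means over the 6 rats, at 33400 and 32530 FPKM, and COI, the catalytic subunit of cytochrome c oxidase, followed at 27670 FPKM. These 3 genes changed places from rat to rat, each with a highest value in at least 1 rat. MT-CO2 and CYTB, the cytochrome b of complex III, came next at 17090 and 14840 FPKM. ND3, MT-ND2 and ND1, subunits of complex I, averaged 14070, 11360 and 11120 FPKM, and did not keep a fixed order among themselves. MT-ND4, MT-ND6 and MT-ND5, also of complex I, took the places 9, 10 and 11 in every one of the 6 rats, at 7762, 4071 and 2636 FPKM. The ratio of MT-CO3 to MT-ND5 was 12.8, 13.5 and 16.1 in olanzapine rats 4, 10 and 12, against 14.1, 11.4 and 10.1 in vehicle rats 3, 9 and 11 (exact permutation test, two-sided, p = 0.3; adjusted p = 0.7 over 7 ratios).

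**Figure D2:**
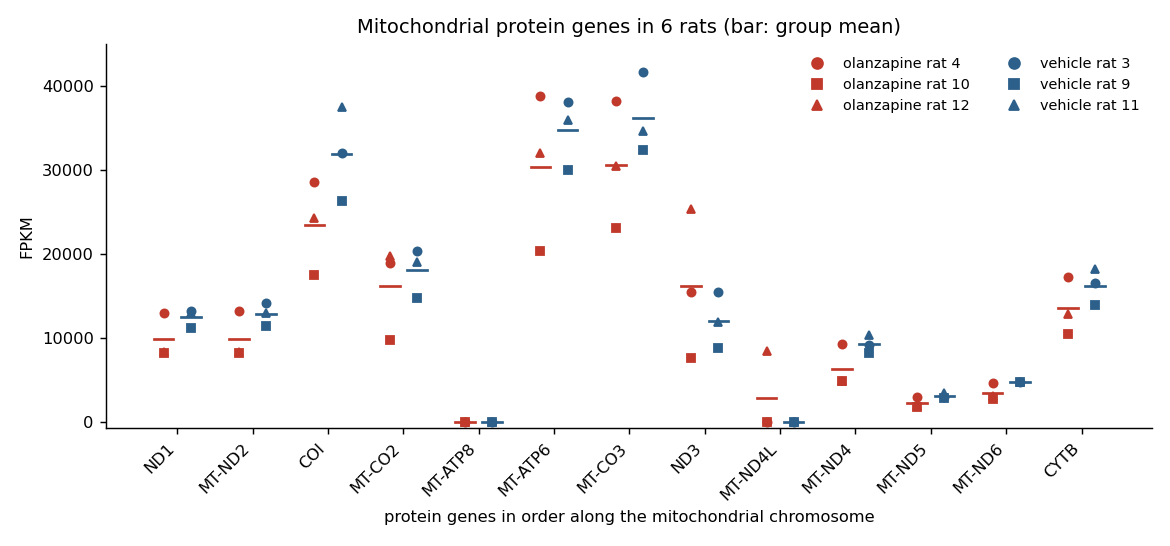
FPKM of the 13 mitochondrial protein genes in chromosome order, each point a rat and each bar the mean of 3 rats, olanzapine in red left of vehicle in blue. Olanzapine rat 10 is the lowest point in all 11 genes above 0 in every rat, MT-ATP8 lies at 0 throughout and MT-ND4L is above 0 only in olanzapine rat 12.

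The 11 protein genes above 0 in every rat had lower means in the olanzapine rats, except ND3, and none passed the test. Their log2 fold changes of FPKM + 1 lay between -0.61 and 0.30 with a median of -0.37, and 10 of the 11 were below 0. Over all genes tested the median was -0.11, and 64.3% were below 0. Scaling the rats by median-ratio size factors moved the median of all genes to 0.03 and that of the 11 genes to -0.20, and scaling them to the same total off the mitochondrial chromosome moved these medians to -0.24 and -0.53. All 11 come from 1 chromosome of the same 6 libraries and are not independent.

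The rats of the olanzapine group were unlike each other. Olanzapine rat 10 was the lowest of all 6 rats in 11 of the 11 genes. Olanzapine rat 12 lay below all vehicle rats in 8 genes, among them in 2 and above them in 1. Olanzapine rat 4 lay among the vehicle rats in 8 genes, above all of them in 2 and below all of them in 1. Without olanzapine rat 10 the median log2 fold change of the 11 genes was -0.26 and 8 were below 0, and without olanzapine rat 4 the median was -0.59. Olanzapine rat 4, with the highest mitochondrial protein gene share of its group, also had the highest summed slow fiber markers of its group, and olanzapine rat 10 had the lowest of both. In the vehicle group, vehicle rat 3 was the highest in both, at a slow fiber sum of 34210 FPKM and a share of 19.7%. Vehicle rat 11 had the lowest slow fiber sum of that group and a share of 19.6%, above the 17.4% of vehicle rat 9. Olanzapine rat 4 had a share at the vehicle level with a slow fiber sum below that of every vehicle rat. How the share relates to the slow fiber sum was not tested.

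Of the 7 complex I genes, MT-ND4 had 9254, 4836 and 4875 FPKM in olanzapine rats 4, 10 and 12, against 9089, 8147 and 10371 FPKM in vehicle rats 3, 9 and 11. Olanzapine rats 10 and 12 lay below every vehicle rat and olanzapine rat 4 lay among them. Its log2 fold change of -0.61 was the lowest among the 11 genes (standard error 0.30, 95% confidence interval -1.29 to 0.08, limma adjusted p = 0.424).

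MT-ND6, the complex I subunit whose messenger RNA comes from the other strand of the circle, had 4596, 2676 and 3027 FPKM in olanzapine rats 4, 10 and 12, against 4715, 4747 and 4667 FPKM in vehicle rats 3, 9 and 11. It was the only one of the 34 loci tested whose groups did not overlap, where 19.7% of all genes tested did not overlap and 14.6% did so with the olanzapine rats lower. The vehicle rats were close to each other, with a mean of 4710 ± 40.3 FPKM (SD, n = 3), and olanzapine rat 4 lay just below them. The log2 fold change was -0.50 (95% confidence interval -1.07 to 0.07, limma adjusted p = 0.425). MT-ND6, at 13543 to 14061 on chromosome M, shares 23 bases with MT-ND5 at 11736 to 13565, and the library kit does not mark strand, so reads of the 2 strands cannot be told apart. MT-ND5 had 2995, 1701 and 1891 FPKM in olanzapine rats 4, 10 and 12, against 2962, 2844 and 3425 FPKM in vehicle rats 3, 9 and 11 (log2 fold change -0.53, limma adjusted p = 0.418).

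ND1 and MT-ND2, which lie on either side of a group of short loci, behaved alike across the rats. ND1 had 12946, 8223 and 8256 FPKM in olanzapine rats 4, 10 and 12, against 13132, 11174 and 13004 FPKM in vehicle rats 3, 9 and 11 (log2 fold change -0.37, limma adjusted p = 0.536). MT-ND2 had 13225, 8210 and 8264 FPKM in olanzapine rats 4, 10 and 12, against 14169, 11375 and 12927 FPKM in vehicle rats 3, 9 and 11 (log2 fold change -0.41, limma adjusted p = 0.523). In both genes olanzapine rats 10 and 12 were nearly equal and below all vehicle rats.

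ND3 differed from the other protein genes in its spread. It had 15424, 7572 and 25355 FPKM in olanzapine rats 4, 10 and 12, against 15413, 8732 and 11906 FPKM in vehicle rats 3, 9 and 11. The highest rat exceeded the lowest by 3.35-fold, against 1.60-fold in ND1 and no more than 2.14-fold in the other 9 genes. Its log2 fold change was 0.30 (95% confidence interval -0.71 to 1.30, limma adjusted p = 0.778) and was -0.11 without olanzapine rat 12. With 348 bases it is the shortest of the 11 genes.

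MT-ND4L, a complex I subunit of 297 bases, had 0, 0 and 8478 FPKM in olanzapine rats 4, 10 and 12 and was listed at 0 in all 3 vehicle rats. MT-ATP8, an ATP synthase subunit of 204 bases, was listed at 0 in all 6 rats. These are the shortest protein genes of the chromosome. MT-ATP8 shares 43 of its bases with MT-ATP6, which was at 20350 FPKM or more in every rat, and MT-ND4L shares 7 with MT-ND4. A 0 in a table of this kind can also be an estimate that failed, which the files cannot show, so the single value of MT-ND4L and these zeros are given as listed and no fold is read from them.

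The catalytic core of cytochrome c oxidase was represented by 3 genes. COI had 28504, 17489 and 24266 FPKM in olanzapine rats 4, 10 and 12, against 32031, 26249 and 37471 FPKM in vehicle rats 3, 9 and 11 (log2 fold change -0.46, 95% confidence interval -1.13 to 0.21, limma adjusted p = 0.506). MT-CO3 had 38245, 23037 and 30516 FPKM in olanzapine rats 4, 10 and 12, against 41606, 32381 and 34620 FPKM in vehicle rats 3, 9 and 11 (log2 fold change -0.26, limma adjusted p = 0.689). In each, only olanzapine rat 4 reached the range of the vehicle rats. MT-CO2 had 18930, 9780 and 19784 FPKM in olanzapine rats 4, 10 and 12, against 20276, 14711 and 19055 FPKM in vehicle rats 3, 9 and 11 (log2 fold change -0.21, limma adjusted p = 0.793). Here olanzapine rats 4 and 12 lay within the vehicle range, and without olanzapine rat 10 the log2 fold change was 0.12. The ratio of MT-CO2 to COI was 0.664, 0.559 and 0.815 in olanzapine rats 4, 10 and 12, against 0.633, 0.560 and 0.509 in vehicle rats 3, 9 and 11 (exact permutation test, two-sided, p = 0.3; adjusted p = 0.7).

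MT-ATP6 had 38769, 20350 and 31988 FPKM in olanzapine rats 4, 10 and 12, against 38144, 29939 and 35995 FPKM in vehicle rats 3, 9 and 11 (log2 fold change -0.23, limma adjusted p = 0.747). Its direction rested on olanzapine rat 10, without which the log2 fold change was 0.03. CYTB had 17188, 10434 and 12847 FPKM in olanzapine rats 4, 10 and 12, against 16477, 13925 and 18169 FPKM in vehicle rats 3, 9 and 11 (log2 fold change -0.29, limma adjusted p = 0.649). In CYTB olanzapine rats 10 and 12 lay below all vehicle rats and olanzapine rat 4 among them.

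**Figure D3:**
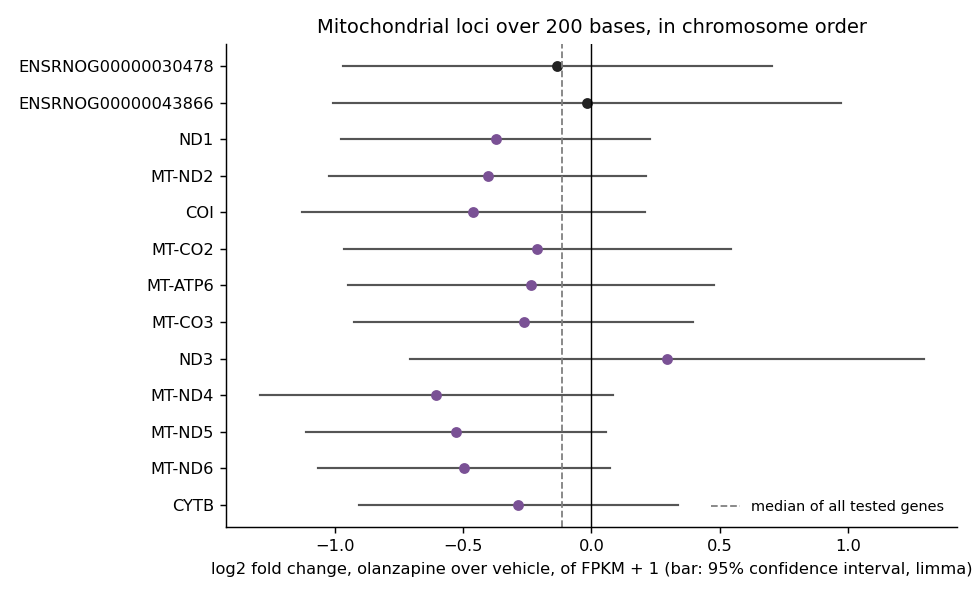
Log2 fold change of FPKM + 1, olanzapine over vehicle, with its 95% confidence interval from limma, for the 2 unnamed loci over 200 bases (black) and the 11 protein genes above 0 in every rat (purple), in chromosome order from top to bottom. Every interval includes 0, the points of 10 protein genes lie left of 0 and that of ND3 lies at 0.30, and the dashed line marks the median of all genes at -0.11.

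Longer protein genes had lower log2 fold changes, with a Spearman correlation of -0.67 between length and log2 fold change over the 11 genes. This is a description of 11 genes of the same libraries and fit. The coefficient lay between -0.74 and -0.46 with 1 rat left out, the weakest value being that without vehicle rat 11.

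Grouped by complex, 2 of 4 shares of the protein gene FPKM had groups without overlap. The 4 shares make up the whole of the protein gene FPKM in each rat, so a rise in 1 share goes with a fall elsewhere. These 2 are therefore not independent results. The 3 cytochrome c oxidase genes held 42.8%, 44.0% and 41.5% of the protein gene FPKM in olanzapine rats 4, 10 and 12, against 45.2%, 44.7% and 45.2% in vehicle rats 3, 9 and 11. The groups did not overlap, and the difference was -2.22 percentage points (exact permutation test, two-sided, p = 0.1, the smallest p possible; adjusted p = 0.2 over 4 complexes). The 7 complex I genes held 29.2%, 29.1% and 33.5% in olanzapine rats 4, 10 and 12, against 28.6%, 28.6% and 27.9% in vehicle rats 3, 9 and 11. These groups did not overlap either, with a difference of 2.21 percentage points (exact permutation test, two-sided, p = 0.1; adjusted p = 0.2). Olanzapine rat 12, with the high values of ND3 and MT-ND4L, carried most of the complex I difference, which was 1.11 percentage points without MT-ATP8 and MT-ND4L and 0.751 percentage points without olanzapine rat 12. The complex IV difference was -1.53 percentage points without the genes at 0 and lay between -2.83 and -1.59 with 1 rat left out. The complex III share of 8.29% in the olanzapine rats and 8.47% in the vehicle rats and the complex V share of 18.3% in the olanzapine rats and 18.1% in the vehicle rats overlapped between the groups (exact permutation test, p = 0.9 and p = 1.0).

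The ribosomal RNA class was low beside the protein genes. ENSRNOG00000030478, at bases 68 to 1025 of chromosome M, had 978, 496 and 1248 FPKM in olanzapine rats 4, 10 and 12, against 1132, 1095 and 645 FPKM in vehicle rats 3, 9 and 11 (log2 fold change -0.13, 95% confidence interval -0.97 to 0.70, limma adjusted p = 0.885). ENSRNOG00000043866, at bases 1094 to 2664, had 626, 244 and 830 FPKM in olanzapine rats 4, 10 and 12, against 604, 610 and 357 FPKM in vehicle rats 3, 9 and 11 (log2 fold change -0.02, 95% confidence interval -1.01 to 0.97, limma adjusted p = 0.988). Olanzapine rat 10 and vehicle rat 11 were the lowest rats of their groups in both loci, and the direction of neither locus held when rats or scaling were changed. The ratio of the first locus to the second was 1.56, 2.03 and 1.51 in olanzapine rats 4, 10 and 12, against 1.87, 1.795 and 1.81 in vehicle rats 3, 9 and 11 (exact permutation test, two-sided, p = 0.4; adjusted p = 0.7). COI exceeded ENSRNOG00000043866 by 45.6, 71.6 and 29.3-fold in olanzapine rats 4, 10 and 12, against 53.0, 43.0 and 105.0-fold in vehicle rats 3, 9 and 11. The library kit selects RNA with poly(A) tails, so these levels are those of the RNA that was captured and not of ribosomal RNA in the tissue.

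The short loci fell into a high and a low set. Over the 6 rats 9 of the 22 had a mean of at least 8421 FPKM and the other 13 a mean of no more than 1160 FPKM. The 5 highest in a rat held 76.9% to 81.8% of its short-locus FPKM. In all, 12 short loci were above 0 in every rat, 8 were at 0 in some rats and 2 were at 0 in every rat. The number at 0 was 5, 4 and 3 in olanzapine rats 4, 10 and 12, against 5, 9 and 5 in vehicle rats 3, 9 and 11.

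ENSRNOG00000032274, a locus of 69 bases at 3835 to 3903 that ends where MT-ND2 begins, was the highest row of the whole table in 5 of the 6 rats. It had 77884, 62957 and 60859 FPKM in olanzapine rats 4, 10 and 12, against 74072, 66850 and 71350 FPKM in vehicle rats 3, 9 and 11 (log2 fold change -0.08, 95% confidence interval -0.71 to 0.54, limma adjusted p = 0.909). The groups overlapped, and this locus varied less between rats than MT-ND2 beside it.

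ENSRNOG00000031333, of 68 bases at 5185 to 5252, varied most among the high loci. It had 3408, 3960 and 88272 FPKM in olanzapine rats 4, 10 and 12, against 4241, 1955 and 70590 FPKM in vehicle rats 3, 9 and 11. A single rat of each group was thus more than 10-fold above the other 2 of its group, and in olanzapine rat 12 the locus was the highest row of the table. The fitted difference was uncertain (log2 fold change 0.34, standard error 1.52, limma adjusted p = 0.931). A stretch of 32 bases with no listed locus lies between it and ENSRNOG00000032609, the widest gap between consecutive listed loci.

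The neighbors of this locus did not share its pattern to that extent. ENSRNOG00000032609, at 5081 to 5152, had 21541, 25270 and 48739 FPKM in olanzapine rats 4, 10 and 12, against 33603, 22823 and 34423 FPKM in vehicle rats 3, 9 and 11. ENSRNOG00000029954, at 5256 to 5321, had 12360, 10348 and 26668 FPKM in olanzapine rats 4, 10 and 12, against 23685, 13363 and 27848 FPKM in vehicle rats 3, 9 and 11. Olanzapine rat 12 and vehicle rat 11 were the highest of their groups in both, by less than 3-fold over the lowest rat.

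The remaining high loci also overlapped between the groups. ENSRNOG00000029145, of 68 bases at 15348 to 15415 and the last listed locus of the chromosome, had 37432, 11490 and 23635 FPKM in olanzapine rats 4, 10 and 12, against 47966, 22656 and 14434 FPKM in vehicle rats 3, 9 and 11 (log2 fold change -0.21, limma adjusted p = 0.876). ENSRNOG00000033932, at 5010 to 5078, had 11497, 18088 and 32777 FPKM in olanzapine rats 4, 10 and 12, against 24777, 16723 and 21622 FPKM in vehicle rats 3, 9 and 11 (log2 fold change -0.13, limma adjusted p = 0.896). ENSRNOG00000032112, of 75 bases at 2665 to 2739 just before ND1, had 19018, 10831 and 12058 FPKM in olanzapine rats 4, 10 and 12, against 15738, 7263 and 13936 FPKM in vehicle rats 3, 9 and 11 (log2 fold change 0.21, limma adjusted p = 0.808). The orders of the rats differed between these 3 loci. ENSRNOG00000033545, at 3761 to 3831, had 7461, 9127 and 3149 FPKM in olanzapine rats 4, 10 and 12, against 11670, 12314 and 6802 FPKM in vehicle rats 3, 9 and 11 (log2 fold change -0.73, limma adjusted p = 0.476). ENSRNOG00000032997, at 14062 to 14130 between MT-ND6 and CYTB, had 19990, 9004 and 11150 FPKM in olanzapine rats 4, 10 and 12, against 10347, 12658 and 12585 FPKM in vehicle rats 3, 9 and 11 (log2 fold change 0.09, limma adjusted p = 0.910).

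**Figure D4:**
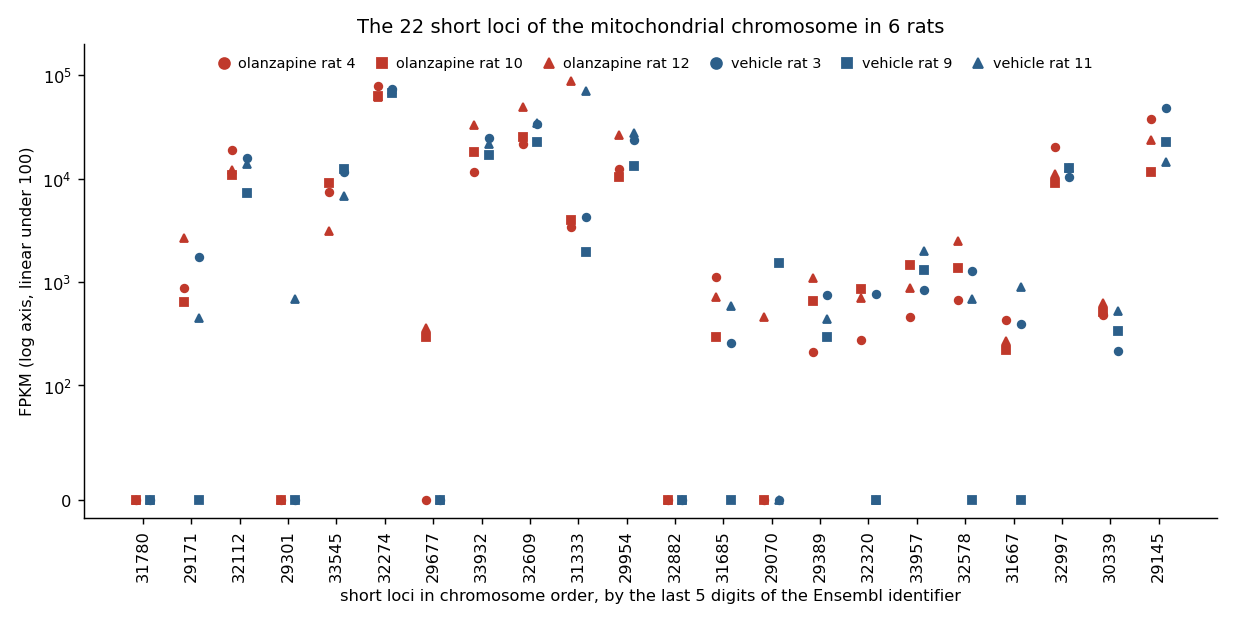
FPKM of the 22 short loci in chromosome order, each point a rat, olanzapine in red left of vehicle in blue, on a log axis that is linear under 100. The 9 loci with a mean of at least 8421 FPKM stand above the other 13, which lie at 0 or at no more than 2688 FPKM, and ENSRNOG00000031333 spans 1955 to 88272 FPKM.

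Many low short loci lay near the lowest value above 0 of their rat. The lowest short-locus value above 0 was 211.6, 217.9 and 267.5 FPKM in olanzapine rats 4, 10 and 12, against 216.1, 292.6 and 443.8 FPKM in vehicle rats 3, 9 and 11. Multiplied by the relative depth of the rat these values were 195.4, 196.4 and 199.3 in olanzapine rats 4, 10 and 12, against 216.1, 195.7 and 197.9 in vehicle rats 3, 9 and 11. The lowest value was thus nearly inverse to depth. Depth was itself estimated from ratios of low FPKM values, so the relation is not an independent result.

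The pair of loci with an unadjusted p under 0.05 were both low and listed at 0 in some rats. ENSRNOG00000029677, of 66 bases at 4943 to 5008, was listed at 0, 293.5 and 356.8 FPKM in olanzapine rats 4, 10 and 12 and at 0 in all 3 vehicle rats (limma adjusted p = 0.286). ENSRNOG00000032320, of 68 bases at 9800 to 9867 between ND3 and MT-ND4L, was listed at 272.7, 853.1 and 702.8 FPKM in olanzapine rats 4, 10 and 12, against 767.1, 0 and 0 FPKM in vehicle rats 3, 9 and 11 (limma adjusted p = 0.321). The groups overlapped in both. ENSRNOG00000029677 passed the test over all genes without olanzapine rat 4 (limma adjusted p = 2.8e-06) and ENSRNOG00000032320 without vehicle rat 3 (limma adjusted p = 9.2e-05). Leaving out these rats removed the single 0 of the olanzapine group in the first locus and the single value above 0 of the vehicle group in the second. ENSRNOG00000030339, the low locus with the next lowest p, had 484.4, 517.3 and 623.0 FPKM in olanzapine rats 4, 10 and 12, against 216.1, 340.0 and 523.8 FPKM in vehicle rats 3, 9 and 11 (log2 fold change 0.67, limma adjusted p = 0.395).

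Nuclear genes of the same complexes were set beside the mitochondrial genes. Of the 39 rows tested for nuclear complex I subunits 0 passed the adjusted threshold with limma. Their median log2 fold change was 0.18 and 31 were above 0. An unadjusted p under 0.05 from limma was reached by 1 row upward and 1 downward. All genes had 3.79% and 9.45% in these directions. Ndufv3, Ndufs5 and Ndufb4 each stand in more than 1 of the rows, so there are fewer subunits than rows. The medians were 0.15 over 10 rows of complex III, 0.17 over 12 of complex IV and 0.18 over 15 of complex V. Of these rows 0 were called by either threshold. Uqcrb stands in more than 1 of the complex III rows. For the 4 genes of complex II, which has no mitochondrially encoded subunit, the median was -0.14. The median of all genes was -0.11. The list medians are of unscaled FPKM and were not followed across the scalings. Median-ratio size factors moved the median of all genes to 0.03, and scaling to the total off the mitochondrial chromosome moved it to -0.24. Of the 143 nuclear genes in these and the following lists, limma without adjustment gave 3 upward and 9 downward at the 0.05 cut. The counts became 11 and 2 with the first scaling and 0 and 17 with the second, so their main direction depended on scaling. The Poisson test gave 57 of the 143 nuclear genes tested in these and the following lists at an unadjusted p under 0.05, against 13.9% of all genes. Here too its p depends on the level of a gene.

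The most abundant nuclear subunits lay below most mitochondrial genes in level. COX6A2, the muscle form of a cytochrome c oxidase subunit, had 3907, 4700 and 5534 FPKM in olanzapine rats 4, 10 and 12, against 5470, 4417 and 3702 FPKM in vehicle rats 3, 9 and 11 (log2 fold change 0.06, limma adjusted p = 0.92). Cox8b, another subunit of that complex, had a log2 fold change of 0.10 (limma adjusted p = 0.90). Ndufb8, an accessory subunit of complex I, had 970.8, 979.6 and 1235 FPKM in olanzapine rats 4, 10 and 12, against 858.4, 627.4 and 669.0 FPKM in vehicle rats 3, 9 and 11 (log2 fold change 0.57, limma adjusted p = 0.31). Its groups did not overlap and its direction was opposite to that of most mitochondrial genes. Ndufb9, of the same complex, overlapped between the groups (log2 fold change 0.26, limma adjusted p = 0.61), as did Uqcrq and Uqcr11 of complex III (log2 fold changes 0.12 and 0.18) and Atp5e and Atp5i of complex V (log2 fold changes 0.39 and 0.14).

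The ratio of the mean level of mitochondrial to nuclear subunits of a complex, chosen after seeing the data, was lower on average in the olanzapine rats for all 4 complexes. The nuclear mean took every listed row, so a subunit with more than 1 row weighs more. For complex V its 17 rows include those of Atp5f1, which were at 0 in all 6 rats. The mitochondrial mean took all genes too. For complex V it includes MT-ATP8, listed at 0 in all 6 rats. For complex I it includes MT-ND4L, listed at 8478 FPKM in olanzapine rat 12 and at 0 in every other rat, which raises the ratio of that rat alone. For complex IV it was 21.1, 12.99 and 12.7 in olanzapine rats 4, 10 and 12, against 18.5, 19.2 and 25.1 in vehicle rats 3, 9 and 11. For complex I it was 23.4, 12.7 and 18.4 in olanzapine rats 4, 10 and 12, against 21.1, 22.4 and 24.2 in vehicle rats 3, 9 and 11. For complex V it was 19.1, 9.76 and 12.2 in olanzapine rats 4, 10 and 12, against 15.6, 17.0 and 18.7 in vehicle rats 3, 9 and 11. Complex III, with CYTB as its single mitochondrial gene, had 31.6, 16.9 and 19.0 in olanzapine rats 4, 10 and 12, against 24.2, 28.3 and 33.9 in vehicle rats 3, 9 and 11. In all 4 complexes olanzapine rats 10 and 12 lay below every vehicle rat, and olanzapine rat 4 reached or passed the vehicle range. The groups overlapped in each complex (exact permutation test, two-sided, p = 0.3 for complexes I, III and IV and p = 0.4 for complex V; adjusted p = 0.4 for all 4).

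**Figure D5:**
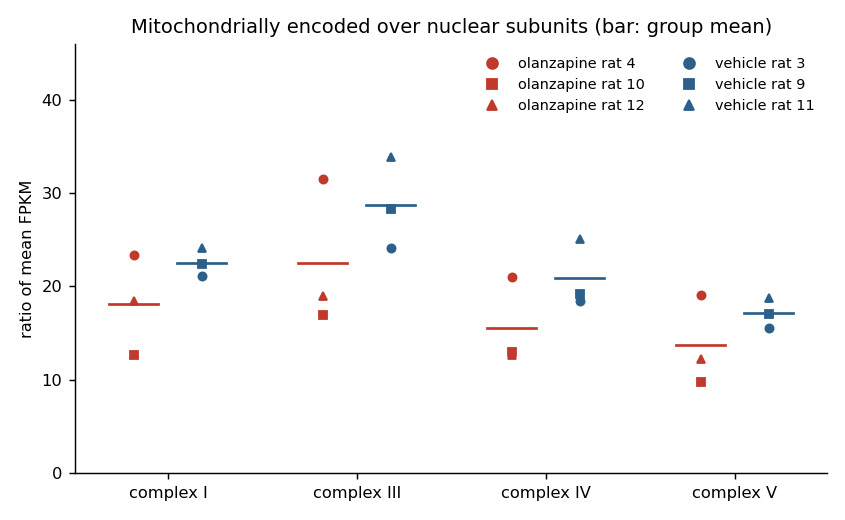
Ratio of the mean FPKM of mitochondrially encoded subunits to the mean FPKM of nuclear subunits in complexes I, III, IV and V, each point a rat and each bar the mean of 3 rats, olanzapine in red left of vehicle in blue. Olanzapine rats 10 and 12 lie between 9.76 and 19.0 in every complex, and olanzapine rat 4 lies among or above the vehicle rats.

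Nuclear genes that maintain and express mitochondrial DNA were examined last. Of 12 genes of mitochondrial DNA maintenance, 15 of transcription, 27 of RNA processing and decay and 11 of translation tested, 0 passed the adjusted threshold with limma. At an unadjusted p under 0.05 there were 0 higher and 3 lower, 0 and 0, 2 higher and 3 lower, and 0 higher and 2 lower in these lists, against 3.79% higher and 9.45% lower of all genes. Their median log2 fold changes were -0.20, -0.14, -0.20 and -0.23, beside -0.11 over all genes. Tfam, the factor that packages mitochondrial DNA and starts its transcription, had 40.6, 40.0 and 40.7 FPKM in olanzapine rats 4, 10 and 12, against 52.0, 38.2 and 44.9 FPKM in vehicle rats 3, 9 and 11 (log2 fold change -0.14, limma adjusted p = 0.71). Lonp1, a protease of the mitochondrial matrix, had 21.0, 23.9 and 17.1 FPKM in olanzapine rats 4, 10 and 12, against 31.4, 25.7 and 26.5 FPKM in vehicle rats 3, 9 and 11, without overlap (log2 fold change -0.42, limma adjusted p = 0.38). Sdhb, the iron-sulfur subunit of complex II, also had groups without overlap, at 448.0, 513.3 and 472.5 FPKM in olanzapine rats 4, 10 and 12, against 722.8, 521.9 and 573.2 FPKM in vehicle rats 3, 9 and 11 (log2 fold change -0.33, limma adjusted p = 0.48). The other most abundant genes of these lists overlapped between the groups. They were Sdhc of complex II (log2 fold change 0.10), Mrpl12, a protein of the mitochondrial ribosome (0.29), Esrra, a nuclear receptor that drives genes of energy metabolism (0.15), Hsd17b10, a subunit of mitochondrial RNase P in human cells (0.15), Fastk, which stabilizes MT-ND6 RNA in mouse cells (-0.16), Oxa1l, which inserts new subunits into the inner membrane (-0.28), and Tufm, the mitochondrial elongation factor Tu (-0.18).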

How the data were processed

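RNA of gastrocnemius muscle from 6 rats was sequenced by the authors as single-end reads of poly(A)-selected, unstranded libraries (TruSeq RNA v2). Per the labels and the study's methods, reads were demultiplexed with CASAVA 1.8.2 and aligned with TopHat 2.0.9 to the rat assembly Rn5 (Rnor_5.0), and uniquely mapped reads were turned by the authors into FPKM of Ensembl genes (Cufflinks 2.2.1). Reads shared with nuclear copies of mitochondrial DNA are therefore not in the deposited FPKM. FPKM divides by length, so that loci little longer than a read rest on few bases. The effective length used is not given in the sources used here. Deposited group means, errors, fold changes and p-values were not used.

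The FPKM were analyzed with no further scaling. Genes whose mean over the 6 rats reached 1 FPKM were fitted with limma 3.58.1 (R 4.3.3, variance trend) on log2(FPKM + 1), which understates the change of low genes, with Benjamini-Hochberg adjustment over all of them and a threshold of 0.05. The test the study ran has no term for the spread between rats, and a Poisson likelihood ratio test of that kind was an alternative. It was run on FPKM in place of read counts. Shares and ratios were compared over rats by exact permutation tests (scipy 1.17.1). Each library is 1 rat. Coordinates are 1-based positions on chromosome M of the deposited table, and loci under 200 bases were counted as short. Relative depth was estimated from the steps between FPKM values under 0.5. The code was tested on simulated data. Alternatives were other pseudocounts, filters, scalings and share denominators, and each rat left out. All mitochondrial rows could be named, and of the nuclear lists those past the adjusted threshold and the 2 with the highest mean. The members and lists were chosen with earlier results of these data known.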

Additional observations from a re-analysis of the deposited data

How the results depend on the processing

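No paired analysis was possible because the groups share no replicate numbers. The cause was not tested where a value below changed side or direction. With the Poisson likelihood ratio test, whose p depends on FPKM level, 33 loci of the chromosome had an unadjusted p under 0.05. Of these 12 were protein genes, 1 was of the ribosomal RNA class and 20 were short loci. The genes of the nuclear lists at that cut numbered 57. At an adjusted p under 0.05 all these counts were 0 with limma under every other setting that kept all 6 rats. With 1 rat left out the count was 0 to 1 for the chromosome and for the short loci and 0 for the other classes and the nuclear lists. Over all genes the Poisson test gave 1430 at an unadjusted p under 0.05, against 1362 with limma at that cut. The limma count at an adjusted p under 0.05 was 52. It became 83 once loci under 200 bases were dropped and 102 once genes at 0 in a rat were dropped. It was 31 under median-ratio scaling, 27 when low genes were kept, and 14 to 62 with 1 rat left out.

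The difference in share of the summed FPKM, olanzapine minus vehicle, turned positive for the short loci at 0.662 percentage points with the 50 most abundant nuclear rows left out of the denominator. With 1 rat left out it lay between -3.93 and 0.683 percentage points for the short loci and between -0.0350 and 0.0197 for the ribosomal RNA class, turning positive without olanzapine rat 10 for both, without vehicle rat 11 for the short loci and without vehicle rat 9 for the ribosomal RNA class. Among the protein genes, the share difference lay between -0.598 and 0.389 for complex III and between -0.331 and 0.456 for complex V, and those of complexes I and IV kept their direction. The differences for all loci (-7.57 to -0.703) and for the protein genes (-5.27 to -1.41) also kept theirs.

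With median-ratio size factors the log2 fold change turned positive for ENSRNOG00000030478 (0.0415), ENSRNOG00000043866 (0.16) and ENSRNOG00000032274 (0.0941), and with the Poisson test for ENSRNOG00000043866 (0.0604). With 1 rat left out it lay between -0.41 and 0.25 for ENSRNOG00000030478, -0.38 and 0.50 for ENSRNOG00000043866, -1.19 and 1.88 for ENSRNOG00000031333, -0.39 and 0.12 for MT-CO2, -0.44 and 0.0291 for MT-ATP6 and -0.11 and 0.76 for ND3. Not all short loci were followed across these settings. ENSRNOG00000033932 and ENSRNOG00000032997, with log2 fold changes of -0.13 and 0.09, were among those left out, so a change of direction in them is not listed. Shares of the short loci and of the ribosomal RNA class have no value with a denominator that leaves these loci out. Reads per rat are not given, so depth is known only as a ratio, and 3 rats a group limit the exact tests.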
